A study of Mus musculus with 16 samples.

Results

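The genes described here are 8 acyl-CoA thioesterases of the mouse liver: Acot1, Acot2, Acot3, Acot4, Acot7, Acot8, Acot12 and Acot13. They were listed by name out of 55471 gene identifiers. The list was chosen by family and with the levels of the 4 groups, in counts scaled to library size (CPM), known from earlier results, and all 8 were among the 17046 genes with enough fragments to be tested. Bulk RNA sequencing was available for 16 liver samples in 4 groups of 4. Young mice (12 weeks, Young_adults) and aged controls (102 weeks, Aged_no_ABX) had received no antibiotics, and the aged groups PAM I and PAM II (102 weeks each) were antibiotic groups of a study on early-life exposure. A free-text field labels the young livers as aged, and their title, age and group were followed instead. The sources used here do not spell out the drugs, the doses, the strain, the sex or which mice shared a litter or cage, and they name no genetic change in any group. They also do not state that every sample came from a separate mouse, so the p-values measure only the spread between these samples.

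Acyl-CoA thioesterases cut the bond between a fatty acid, or another acid, and coenzyme A, and so release the free acid and the free coenzyme. They work against the acyl-CoA synthetases and set how much acyl-CoA is available to oxidation, lipid synthesis and signalling in each compartment of the cell. The type I enzymes Acot1 (cytosol), Acot2 (mitochondrial matrix), Acot3 and Acot4 (peroxisomes) arose by gene duplication, and in rodent liver they are known to rise with fasting and with activators of the fatty acid receptor PPAR-alpha. The type II enzymes are unrelated in sequence to these and include Acot7 and Acot12 in the cytosol, Acot8 in peroxisomes and Acot13 at mitochondria.

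On the mouse build GRCm38, the type I genes stood side by side on the plus strand of chromosome 12. In this order they were Acot2 (ENSMUSG00000021226, 83987861 to 83993873), Acot1 (ENSMUSG00000072949, 84009490 to 84018371), Acot4 (ENSMUSG00000052392, 84038379 to 84048601) and Acot3 (ENSMUSG00000021228, 84052144 to 84060402). Acot5 (84069325 to 84076020) and Acot6 (84100654 to 84111349) of the same family followed. The type II genes were scattered. Acot7 lay on chromosome 4 (152178134 to 152271855, plus strand), Acot8 on chromosome 2 (164792765 to 164804882, minus strand), Acot12 on chromosome 13 (91741512 to 91786148, plus strand) and Acot13 elsewhere on chromosome 13 (24817948 to 24831540, minus strand).

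The coding sequences of the type I genes are so alike that the same stretch of each is shown, because reads from them can fit more than 1 gene. Acot1 and Acot2 were identical at 95.6% of aligned coding bases, Acot1 and Acot3 at 84%, and Acot1 and Acot4 at 76.6%. The stretch is 80 bases long, 5′ to 3′, from the GENCODE M21 transcripts, and starts at coding base 589 of Acot1, 712 of Acot2, 622 of Acot3 and 589 of Acot4. Capitals mark bases that differ from Acot1.
Acot1: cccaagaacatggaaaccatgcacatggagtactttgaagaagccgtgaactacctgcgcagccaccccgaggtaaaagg
Acot2: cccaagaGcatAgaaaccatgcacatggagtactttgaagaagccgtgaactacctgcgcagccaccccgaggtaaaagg
Acot3: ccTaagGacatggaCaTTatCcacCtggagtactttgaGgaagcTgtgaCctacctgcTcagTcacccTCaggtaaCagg
Acot4: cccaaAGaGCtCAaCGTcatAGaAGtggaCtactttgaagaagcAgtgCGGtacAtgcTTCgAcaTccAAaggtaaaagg
Here Acot2 differed from Acot1 at 2 bases, Acot3 at 15 and Acot4 at 26. Of all 100-base windows along the transcript, 21.9% of those of Acot1, 17.1% of those of Acot2 and 14.3% of those of Acot3 were also present in the transcript of another gene. That share was 0.36% for Acot4 and 0 for Acot7, Acot8, Acot12 and Acot13. The counting command in the file headers sets no option to count fragments that fit several places, so the levels of Acot1, Acot2 and Acot3 rest on the remaining sequence and are less certain than those of the others.

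Of these 4 type I neighbours, 3 stood higher in every aged control than in every young liver, as did 4.83% of all genes tested. The genes were listed with the group levels known, so nothing is read from that count. As a description, the 250 bases before the start of each of the 4 genes are shown. They come from the RefSeq promoter table of GRCm38.p6, which matched 7 of the 8 genes, and read 5′ to 3′ on the plus strand: Acot2 at chr12:83987611-83987860, Acot1 at chr12:84009252-84009501, Acot4 at chr12:84038129-84038378 and Acot3 at chr12:84051894-84052143. Capitals mark matches, on either strand, to CCAAT or to AGGTCA, the half-site of many nuclear receptors.
Acot2: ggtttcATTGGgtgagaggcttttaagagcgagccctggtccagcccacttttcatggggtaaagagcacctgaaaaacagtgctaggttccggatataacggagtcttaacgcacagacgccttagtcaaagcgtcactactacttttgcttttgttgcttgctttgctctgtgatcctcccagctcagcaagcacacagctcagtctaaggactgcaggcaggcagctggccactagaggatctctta
Acot1: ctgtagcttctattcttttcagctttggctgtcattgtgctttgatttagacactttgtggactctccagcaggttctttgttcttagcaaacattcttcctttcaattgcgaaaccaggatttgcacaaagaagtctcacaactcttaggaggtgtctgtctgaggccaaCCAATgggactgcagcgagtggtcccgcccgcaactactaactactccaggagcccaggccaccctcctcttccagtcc
Acot4: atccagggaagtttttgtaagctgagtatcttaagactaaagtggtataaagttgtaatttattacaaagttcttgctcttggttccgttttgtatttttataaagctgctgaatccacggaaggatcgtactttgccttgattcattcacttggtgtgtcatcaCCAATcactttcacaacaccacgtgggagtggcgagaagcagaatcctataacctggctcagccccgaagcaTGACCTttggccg
Acot3: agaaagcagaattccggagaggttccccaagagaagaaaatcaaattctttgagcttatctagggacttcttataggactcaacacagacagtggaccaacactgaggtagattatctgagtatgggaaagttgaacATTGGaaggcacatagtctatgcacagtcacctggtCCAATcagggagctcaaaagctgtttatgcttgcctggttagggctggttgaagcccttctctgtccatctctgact
CCAAT was found before all 4 genes, at 1 place for Acot2, Acot1 and Acot4 and at 2 places for Acot3, and 37.4% of the 32851 promoters of the table hold it. The half-site was found 13 bases before the start of Acot4, and 18 bases after that of Acot3, outside the printed window. It stood in 16.3% of all promoters. The direct repeat AGGTCANAGGTCA, the classical element of PPAR-alpha with its partner RXR and made of 2 of the half-sites, was in 0.0396% of all promoters and in none of these windows. That says only that these letters are not within the 300 bases searched.

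Between 36968993 and 52090914 fragments per library were assigned to genes. Aged livers differed from young ones in genes with sex-dependent expression: by edgeR (adjusted p under 0.05), of 14 tested female-biased genes 7 rose and 0 fell in aged controls, and of 14 male-biased genes 0 rose and 11 fell. Among all genes tested, 1.92% rose and 1.31% fell. The female-biased genes summed to 10.5 to 13.9 CPM in young livers and 132 to 230.1 CPM in aged controls, and the male-biased ones to 6654 to 13190 and 1340 to 2819 CPM. Among 7 markers of recruited macrophages Gpnmb, Itgax and Trem2 rose, and the list went from summed levels of 39.8 to 59 CPM in young to 74.5 to 196.1 CPM in aged control livers. Kupffer cell markers, of which 0 of 8 passed, summed to 194.7 to 271 CPM and 167.2 to 635.8 CPM. Of 12 hepatocyte markers 11 had a negative log2 fold change in aged controls (median -0.45) and 1 (Serpina1a) passed the test as lower. Their mean log2 CPM was 11.40 to 11.52 in young livers and 10.73 to 11.19 in aged controls, without overlap, and their sums of 110900 to 123300 and 84970 to 123900 CPM overlapped. Of 7 endothelial markers Clec4g and Dnase1l3 fell, and the sums were 236.7 to 281.9 CPM in young livers and 132.4 to 195.3 CPM in aged controls, without overlap. Bile duct markers, of which 0 of 5 passed, summed to 30.6 to 47.1 CPM in young livers and 53.5 to 141.4 CPM in aged controls, also without overlap. Spp1 is in both this list and that of recruited macrophages, so these sums are not separate. Red blood cell markers, of which 0 of 5 passed (median log2 fold change -0.87), summed to 246.1 to 474.7 CPM in young livers. In aged controls they summed to 124.4 to 242.4 CPM, again without overlap. All 8 lymphocyte markers had a positive log2 fold change and 0 passed (median 1.16), with sums of 5.52 to 10.2 and 9.42 to 41.1 CPM. Aged control replicate 4 gave the upper end for bile duct markers (141.4 CPM, other aged controls 53.5 to 86.4) and lymphocyte markers (41.1 CPM, others 9.42 to 13.1). Its hepatocyte mean log2 CPM was 10.73, against 11.14 to 11.19 in the other aged controls. Skeletal muscle transcripts were uneven within groups, with sums of 1.1 to 132.6 CPM among young livers, 0.85 to 14.9 CPM among aged controls, 2.16 to 49.6 CPM among PAM I and 1.87 to 127.2 CPM among PAM II livers. Young replicate 1 held the 132.6 CPM and had the fewest fragments of the 16 libraries. It was also left out together with aged control replicate 4 in a further fit. The part of these shifts in the thioesterase results was not tested, except that fits with the muscle level as a covariate were run.

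The level of each thioesterase was compared between genes per kilobase of exon (FPKM, with libraries scaled by edgeR's TMM factors), and the 8 genes covered a wide range. Acot13, which hydrolyses long-chain acyl-CoA and binds a phosphatidylcholine transfer protein, stood highest in all 4 groups, at 55.3 ± 9.11 FPKM in young livers and 68.8 ± 11.7 in aged controls (SD, n = 4). Acot12, an acetyl-CoA hydrolase, was the next at 29.3 ± 3.51 and 30.0 ± 7.91 FPKM. Acot7, best known from neurons, came next at 10.8 ± 1.36 and 11.2 ± 0.65 FPKM. In each group the libraries of Acot13 lay above those of Acot12, and those of Acot12 above those of Acot7, without overlap.

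Below them the order differed between young and aged livers. In young livers it was Acot8 (8.56 FPKM), Acot4 (5.16), Acot1 (4.89), Acot2 (1.83) and Acot3 (0.907), and the neighbours in this order overlapped except Acot1 and Acot2. In aged controls it was Acot4 (10.5 FPKM), Acot8 (8.11), Acot3 (7.35), Acot2 (6.63) and Acot1 (6.59), with overlap between all neighbours. Acot3 thus stood at rank 8 of 8 in young livers and at rank 6 in aged controls, PAM I and PAM II, as the stacked levels per library show. These levels divide by the length of all exons of a gene, 3919 bases for Acot1, 1997 for Acot8 and 6674 for Acot4. The transcripts searched above for shared windows had 2272, 1152 and 6203 bases. An order by those lengths was not made and could differ. Fragments of Acot1, Acot2 and Acot3 that fit several genes may also be missing from these levels.

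**Figure D1:**
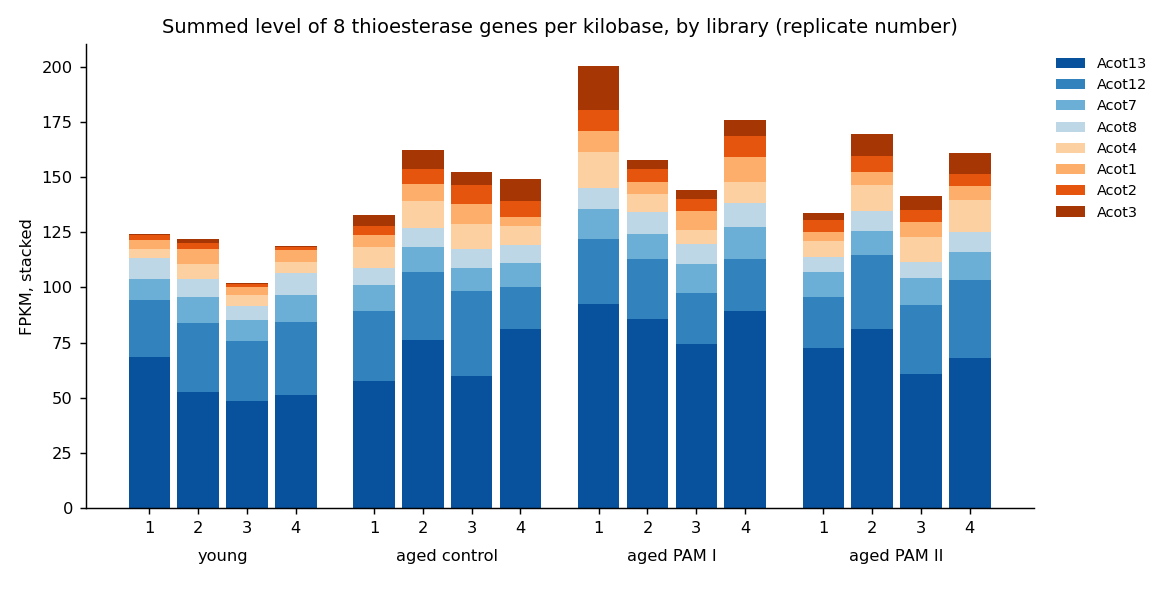
Stacked levels of the 8 thioesterase genes in each of the 16 libraries, in FPKM (y axis) by replicate and group (x axis), type II genes in blue and type I genes in orange. The bars total 102 to 124 FPKM in young livers and 133 to 162 FPKM in aged controls, and the orange part is thinner in the young bars.

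The 8 genes together summed to 117 ± 10 FPKM in young livers, 149 ± 12.1 in aged controls, 169 ± 24.3 in PAM I and 151 ± 16.5 in PAM II (SD, n = 4 each). Acot13 made up 47.3% ± 5.74 of that sum in young livers and 46.1% ± 6.36 in aged controls. The share of Acot12 was 25.2% ± 3.15 and 20.2% ± 5.56. Acot2 made up 1.55% ± 0.35 and 4.4% ± 1.24, and Acot3 0.764% ± 0.551 and 4.9% ± 1.45. Acot4 made up 4.44% ± 1.02 and 7% ± 0.89, and Acot8 7.3% ± 1.04 and 5.45% ± 0.26. The shares of Acot2, Acot3 and Acot4 were higher in every aged control than in every young liver, and that of Acot8 was lower in every aged control. The type II genes gave most of the summed level in every group.

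Livers of untreated mice at 102 weeks were set against those at 12 weeks to see what differed with age. Of the 8 genes, Acot2 and Acot3 rose, and the other 6 did not pass, by edgeR's quasi-likelihood test at a Benjamini-Hochberg adjusted p under 0.05 over all 17046 genes. Over all genes tested, 3.23% were called in either direction, 1.92% higher and 1.31% lower. The genes were chosen with such results known, so this count is a description and nothing is read from it. The median log2 fold change was 0.37 over the 8 genes and -0.01 over all genes tested. In bulk liver, fewer cells of a type and less RNA per cell cannot be told apart. The plot of levels by library shows the 8 genes in all 4 groups.

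**Figure D2:**
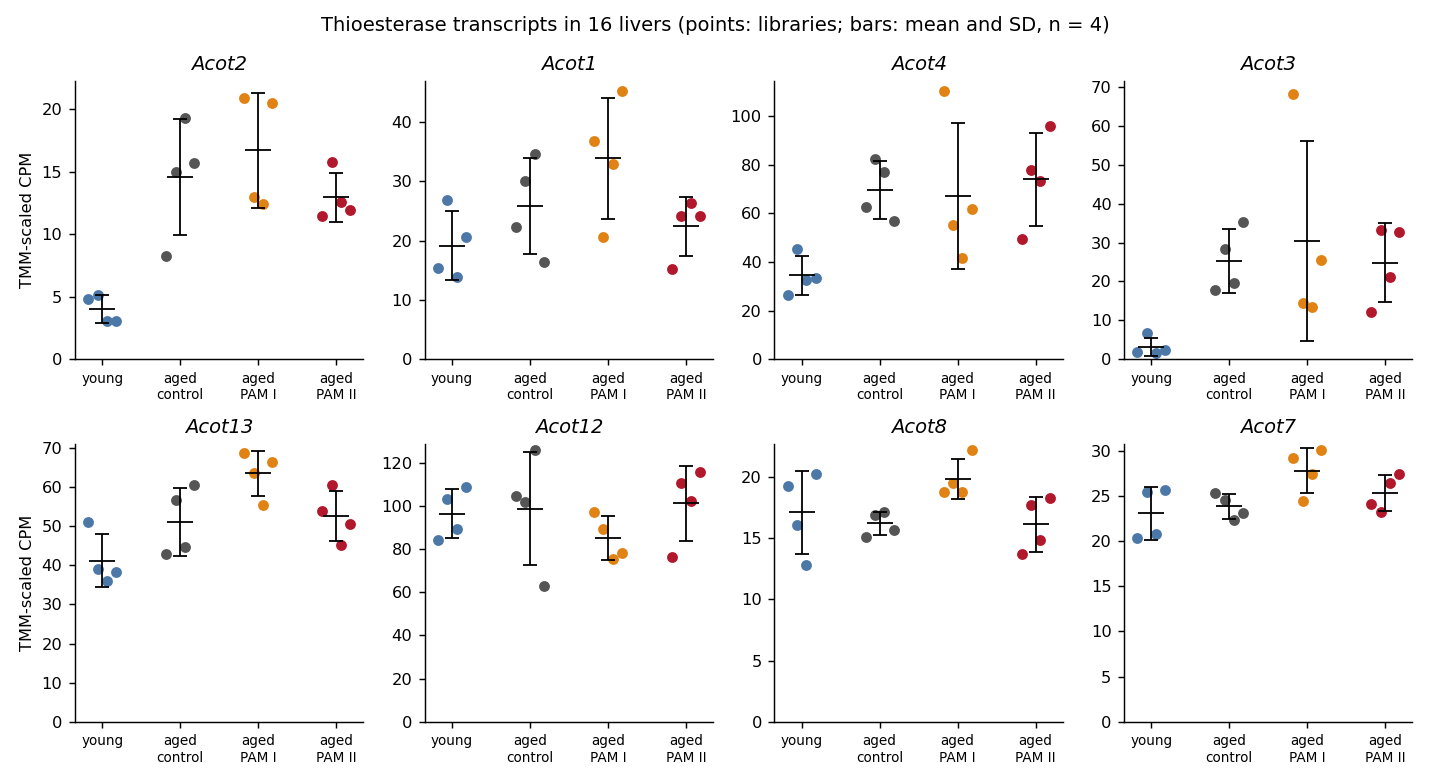
Levels of the 8 genes in TMM-scaled CPM (y axis, from 0) in young, aged control, PAM I and PAM II livers (x axis); points are libraries and bars the mean and SD of 4. All 12 aged libraries lie above all young ones for Acot2 (8.21 CPM or more against 5.14 or less) and Acot3 (12.0 or more against 6.64 or less).

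Acot2, the mitochondrial matrix enzyme for long-chain acyl-CoA, stood at 4.79, 5.14, 3.06 and 3.06 CPM in the 4 young livers and at 8.21, 15, 19.3 and 15.7 CPM in the aged controls. The lowest aged control was above the highest young liver, as for 4.83% of genes tested. The log2 fold change was 1.86 ± 0.27 (SE; adjusted p = 0.0014, edgeR), with group means of 4.01 ± 1.11 and 14.6 ± 4.63 CPM (SD, n = 4). PAM I livers held 20.9, 13, 12.4 and 20.5 CPM, and PAM II livers 11.5, 15.8, 12.5 and 12 CPM. All 12 aged livers were above all 4 young ones, an order found upward in 2.69% of genes tested. The young values rest on 114 to 206 fragments per library.

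Acot3, a peroxisomal enzyme for long-chain and medium-chain acyl-CoA, was measured at 1.89, 6.64, 1.55 and 2.39 CPM in young livers. In aged controls it was at 17.8, 28.3, 19.7 and 35.3 CPM. The groups were far apart, although young replicate 2 stood above the other young livers. The log2 fold change was 3.01 ± 0.57 (SE; adjusted p = 0.0105, edgeR). The PAM I livers gave 68.2, 14.4, 13.5 and 25.4 CPM and the PAM II livers 12, 33.3, 21.2 and 32.9 CPM. PAM I replicate 1 held the highest level of all 16 livers. The call for Acot3 was lost without young replicate 4 (2.90, adjusted p = 0.0505) and without aged control replicate 4 and young replicate 1 together (2.63, adjusted p = 0.110). Without young replicate 2 the log2 fold change was 3.70 (adjusted p = 0.0060).

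Acot4, a peroxisomal enzyme that cuts succinyl-CoA and other dicarboxylyl-CoA esters, stood at 26.3, 45.5, 32.8 and 33.2 CPM in young livers and at 62.5, 82.4, 77 and 57 CPM in aged controls. These groups did not overlap either. The log2 fold change of 1.02 ± 0.27 (SE) had an adjusted p of 0.0505 in edgeR and so just missed the threshold. With other settings the adjusted p lay between 0.00676 (DESeq2) and 0.181 (without aged control replicate 4 and young replicate 1), and 5 of 10 such settings called the gene, as did the fit without young replicate 2 (0.0409). PAM I livers were at 110.4, 55.4, 41.5 and 61.8 CPM and PAM II livers at 49.5, 77.8, 73.4 and 96.1 CPM. Of the 12 aged livers, 11 were above all young ones, and PAM I replicate 3 was below the highest young liver.

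Acot1, the cytosolic enzyme closest in sequence to Acot2, did not separate the ages. Young livers held 15.4, 26.8, 13.8 and 20.7 CPM and aged controls 22.3, 30.1, 34.6 and 16.3 CPM. The ranges overlapped over most of their length, and the log2 fold change was 0.43 ± 0.28 (SE; adjusted p = 0.421, edgeR). Its 95% interval ran from -0.16 to 1.02, so a doubling, which is 1 on this scale, lay within it. The values of Acot1 and Acot2 share the limit from their near-identical coding sequence.

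The type II genes differed less between the ages than Acot2 and Acot3 did in their fitted values, and none of them passed. Acot13 stood at 51.1, 39.1, 36.1 and 38.2 CPM in young livers and at 42.9, 56.6, 44.7 and 60.4 CPM in aged controls, with a log2 fold change of 0.32 ± 0.14 (SE; adjusted p = 0.237, edgeR). Young replicate 1 lay among the aged controls and the other young livers below them all. Acot7 ranged from 20.3 to 25.6 CPM in young and from 22.3 to 25.4 CPM in aged control livers, a log2 fold change of 0.05 ± 0.10 (95% interval -0.17 to 0.27). Acot12 ranged from 84.3 to 108.9 and from 63 to 125.6 CPM (0.03 ± 0.18, 95% interval -0.35 to 0.42). For Acot8, the peroxisomal type II enzyme with a broad range of substrates, the ranges were 12.8 to 20.2 and 15.1 to 17.1 CPM (-0.08 ± 0.14, 95% interval -0.37 to 0.21). For Acot7, Acot8 and Acot12 the intervals excluded a doubling and a halving, which are 1 and -1 on this scale.

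Each antibiotic group was compared with the aged controls to ask whether the exposure left a difference at 102 weeks, and PAM II was compared with PAM I. The comparisons of PAM I and of PAM II with the controls share their control livers. None of the 8 genes was called in any of the 3 comparisons by edgeR, where 0% of all 17046 genes were called. At an unadjusted p under 0.05 there were 1602 genes for PAM I, 465 for PAM II and 778 between the antibiotic groups. DESeq2 called 16 genes for PAM I, none of them listed here, and 0 in the other comparisons.

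**Figure D3:**
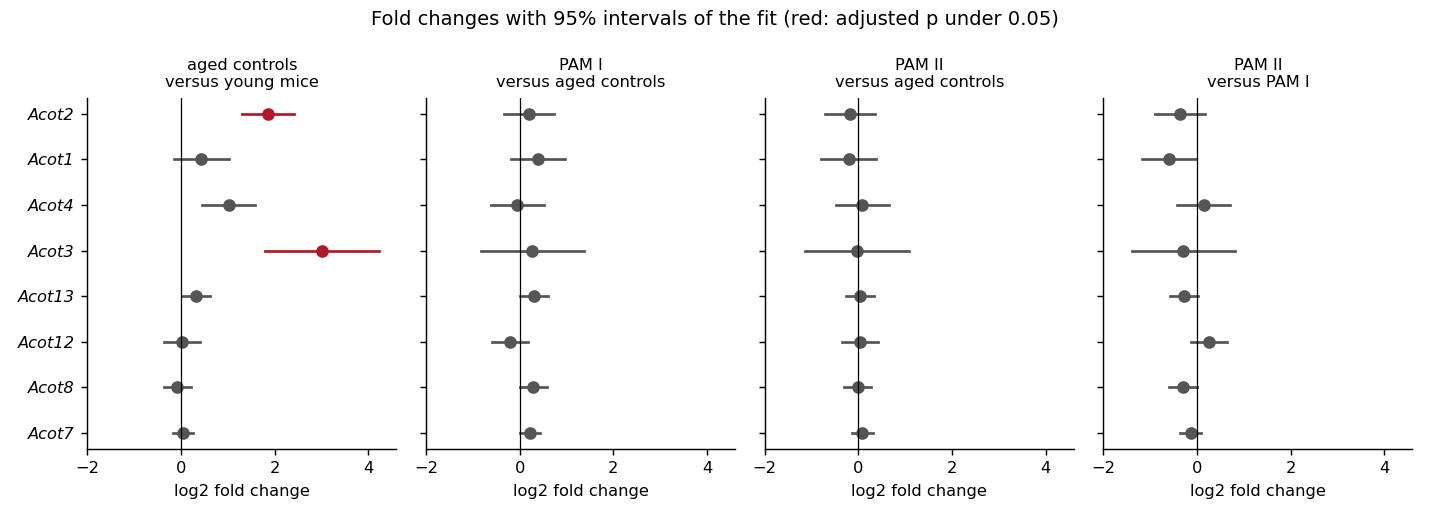
Log2 fold changes (x axis) of the 8 genes (y axis) in the 4 comparisons, with the 95% interval of the edgeR fit and red where the adjusted p was under 0.05. Acot2 (1.86) and Acot3 (3.01) are red for aged controls versus young mice, and no gene is red in the comparisons with PAM I or PAM II.

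In PAM I against aged controls the fitted values ran from -0.21 ± 0.18 for Acot12 to 0.39 ± 0.27 for Acot1 (log2 fold change ± SE), with a median of 0.24 beside 0.02 over all genes. Acot8 was the one listed gene whose groups did not overlap: PAM I livers held 18.8, 19.5, 18.8 and 22.2 CPM and the controls 15.1, 16.9, 17.1 and 15.6 CPM. Groups failed to overlap in that direction for 3.07% of genes. The log2 fold change of Acot8 was 0.29 ± 0.14 (adjusted p = 0.529, edgeR), and that of Acot13 0.31 ± 0.14 (adjusted p = 0.515). PAM I livers held 68.7, 63.7, 55.5 and 66.5 CPM of Acot13, of which 3 lay above the highest control at 60.4 CPM. For Acot3 the interval was wide, from -0.83 to 1.37, and without PAM I replicate 1 its log2 fold change turned from 0.27 to -0.53.

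In PAM II against aged controls the fitted values lay closer to 0, from -0.21 ± 0.28 for Acot1 to 0.09 ± 0.27 for Acot4, and every adjusted p was 1. Their median was 0.01, as was that over all genes tested. The 95% interval was -0.71 to 0.37 for Acot2, -1.13 to 1.08 for Acot3 and -0.47 to 0.65 for Acot4, so a doubling of Acot3 was within it and one of Acot2 or Acot4 was not. Acot7, with a spread of 23.2 to 27.4 CPM in PAM II and 22.3 to 25.4 CPM in controls, had the narrowest interval, -0.13 to 0.31. The groups overlapped for all 8 genes, and 2.1% of genes tested had groups that did not overlap.

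Between the antibiotic groups, 6 of the 8 genes had a lower mean in PAM II than in PAM I on the log2 scale, with a median of -0.28 beside 0.01 over all genes. Of all genes tested, 50.9% had a higher mean in PAM II. The 8 genes were listed with the group levels known, so nothing is read from that count. Acot1 stood at 36.7, 20.6, 32.8 and 45.3 CPM in PAM I and at 15.1, 24.1, 26.3 and 24.1 CPM in PAM II. PAM I replicate 2 lay within the PAM II range and the other PAM I livers above it, and the log2 fold change was -0.60 ± 0.28 (adjusted p = 0.880, edgeR). Acot8 was lower in every PAM II liver (13.7 to 18.3 CPM) than in every PAM I liver (18.8 to 22.2 CPM), a pattern in that direction in 2.9% of genes, with a log2 fold change of -0.30 ± 0.14 (adjusted p = 0.880).

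PAM II replicate 1 stood apart in blood cell transcripts and in markers of several other cell types. It was also the lowest PAM II liver for Acot1, Acot2, Acot3, Acot4, Acot8 and Acot12. Its neutrophil markers summed to 126.4 CPM, against 1.59 to 9.14 CPM in the other PAM II livers and 3.52 to 5.2 CPM in PAM I. Its red blood cell markers summed to 1474 CPM, against 211.2 to 245.6 CPM and 202 to 592.9 CPM. Its hepatocyte markers had a mean log2 CPM of 10.71, against 11.13 to 11.22 in the other PAM II livers. Kupffer cell markers summed to 1283 CPM in it and to 313.9 to 443.9 CPM in those. For recruited macrophages the sums were 264 and 52.5 to 103.4 CPM, and for bile duct cells 204.1 and 43.3 to 80.4 CPM. Both of these lists hold Spp1, so their sums are not separate. Spp1 averaged 77.85 CPM in PAM II livers, and the other bile duct markers 1.78 (Krt7) to 13.65 CPM (Sox9). The stellate cell sum of PAM II replicate 1, 382.6 CPM, lay within those of the other PAM II livers (249.4 to 392.3 CPM). By edgeR 0 of the 4 neutrophil markers tested and 0 of 8 lymphocyte markers passed in PAM II against PAM I, with median log2 fold changes of 3.04 and -0.998. Without PAM II replicate 1 the log2 fold change in PAM II against PAM I was -0.43 for Acot1 and -0.21 for Acot8, and that of Acot3 moved from -0.29 to -0.05. Acot4 moved from 0.14 to 0.31 and Acot12 from 0.25 to 0.38, and none of these values was called. Against aged controls, leaving it out turned Acot3 from -0.02 to 0.21 and Acot8 from -0.01 to 0.06. The part of blood cells or of the rest of the tissue make-up in these values was not tested beyond leaving out that library.

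The other thioesterases showed changes of either sign with age. Of 13 listed for comparison, 9 were tested, and of these 1 rose, 1 fell and 7 did not pass in aged controls against young mice, with a median log2 fold change of 0.44. Among all genes tested, 1.92% rose and 1.31% fell, with a median of -0.01. Acot5, Acot10, Them5 and Olah had too few fragments to be tested. Acot6, the last type I gene of the cluster and known to act on phytanoyl-CoA and pristanoyl-CoA, stood at 0.61, 0.974, 0.85 and 0.59 CPM in young livers and at 1.23, 2.01, 2.56 and 3.18 CPM in aged controls. All aged controls were higher, with a log2 fold change of 1.56 ± 0.32 (SE; adjusted p = 0.0155, edgeR). Its young values rest on 20 to 39 fragments per library, and the call was lost in 3 of 8 fits that left out 1 library: without aged control replicate 4 (adjusted p = 0.0507), young replicate 1 (0.0530) or young replicate 4 (0.0659).

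Them4, a thioesterase of the mitochondria outside the Acot families, fell from 17.2, 15.1, 15.2 and 18.1 CPM in young livers to 12, 12, 13.6 and 9.11 CPM in aged controls. The groups did not overlap, as for 4.44% of genes in that direction, and the log2 fold change was -0.49 ± 0.12 (adjusted p = 0.0405, edgeR). The call held without aged control replicate 3 or young replicate 3 and was lost without any of the other 6 libraries, with adjusted p between 0.0508 and 0.145. The genes that did not pass were Acot9 (0.84), Acot11 (0.95), Them6 (0.44), Ppt1 (0.46), Hibch (-0.03), Ppt2 (-0.19) and Baat (-0.29), the enzyme that joins bile acids to amino acids, all as log2 fold changes. Of these, Acot9, Them6 and Ppt1, and also Acot6, were higher in all 12 aged livers than in all 4 young ones, as were 2.69% of genes tested. Them4 was lower in all 12, as were 1.81% of genes tested.

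The genes around the type I cluster were examined for position. The 3 tested genes nearest to it on each side were Papln, Numb and Riox1 before it and Dnal1, Elmsan1 and Gm31513 after it. None of these 6 was called in aged controls against young mice by edgeR, with log2 fold changes from -0.24 ± 0.57 for Gm31513 to 0.95 ± 0.32 for Papln. Of the 5 type I genes tested, Acot2, Acot3 and Acot6 were called and Acot1 and Acot4 were not, with the uncalled pair lying between Acot2 and Acot3. Acot4 just missed the threshold (adjusted p = 0.0505, edgeR), and the call of Acot6 held in 5 of 8 fits that left out 1 library. No pattern of position is therefore read from the calls. Among all genes tested 3.23% were called, and the genes were chosen with earlier results known. On the minus strand the transcript 4732463B04Rik (84039469 to 84053807) overlaps both Acot4 and Acot3. It averaged 0.14 CPM in young livers and 0.355 CPM in aged controls (log2 fold change 1.34 ± 0.50, adjusted p = 0.156), and per the file headers strand was used in counting.

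**Figure D4:**
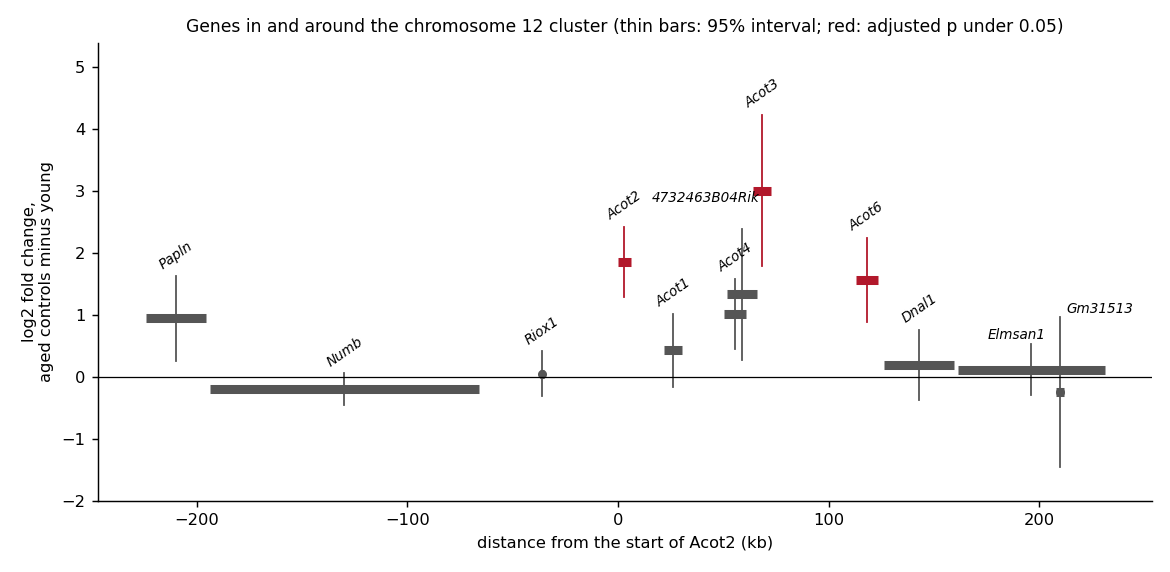
Genes of the chromosome 12 cluster and the 3 tested genes on each side by distance from the start of Acot2 (x axis, kb) and log2 fold change of aged controls against young mice (y axis); thick bars span the gene, thin bars are 95% intervals. The called genes Acot2 (1.86), Acot3 (3.01) and Acot6 (1.56) lie in the cluster, with Acot1 (0.43) and Acot4 (1.02) between them. Acot4 just missed the threshold (adjusted p = 0.0505, edgeR).

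The pathway around the thioesterases was followed in lists written from general knowledge. Beside these lists, 1.92% of all genes tested were called higher and 1.31% lower in aged controls against young mice. The median log2 fold change over all genes was -0.01. The acyl-CoA synthetases, which make the substrates of these enzymes, had 21 genes tested, of which 0 rose and 0 fell in aged controls against young mice, with a median log2 fold change of 0.03. Of 38 PPAR-alpha target genes, 5 rose and 0 fell, with a median of 0.25. Cd36, a fatty acid transporter, stood at 22.5 ± 11.6 CPM in young livers and 150.4 ± 60.8 CPM in aged controls (2.74 ± 0.37, adjusted p = 0.00103, edgeR). Cyp4a14, a fatty acid omega-hydroxylase, stood at 204.2 ± 77.8 and 1034 ± 289.9 CPM (2.34 ± 0.30, adjusted p = 0.000631). Vnn1, a pantetheinase that breaks down a product of coenzyme A, stood at 43.2 ± 15.4 and 114.4 ± 35.4 CPM (1.41 ± 0.27, adjusted p = 0.0104). The other called genes of the list were Cyp4a10, a relative of Cyp4a14 (1.47 ± 0.34), and Abcd2, both named after their values were seen. The count was 3 without aged control replicate 2, aged control replicate 3 or young replicate 4, 2 when only the groups compared were fitted, 6 without young replicate 2 and 8 with DESeq2 (7 higher and 1 lower).

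Of 20 genes of peroxisomal beta-oxidation, 1 rose and 1 fell (median 0.03), beside 1.92% and 1.31% of all genes tested. Abcd2, a peroxisomal importer of very long-chain acyl-CoA, had a log2 fold change of 1.58 ± 0.41 (adjusted p = 0.0496, edgeR). Amacr, a racemase of branched-chain acyl-CoA and bile acid precursors, had -0.51 ± 0.12 (adjusted p = 0.0363). Of 18 mitochondrial beta-oxidation genes 0 rose and 0 fell (median 0.17). Of 15 genes of coenzyme A synthesis and turnover, Vnn1 rose and Nudt7 fell (median -0.01). Nudt7, the peroxisomal hydrolase that splits coenzyme A and acyl-CoA, went from 570.2 ± 131.4 CPM in young livers to 190.2 ± 43.2 in aged controls (-1.58 ± 0.22, adjusted p = 0.00114). Of 16 lipid-sensing regulators Pparg alone rose (0.76 ± 0.19, adjusted p = 0.0398), with a median of -0.13. The calls of Abcd2, Amacr and Pparg held in 2, 3 and 2 of the 8 fits that left out 1 library, and all 3 were lost without aged control replicate 2, aged control replicate 4 or young replicate 4. Without young replicate 2, 2 acyl-CoA synthetases were called. In the comparisons with PAM I and PAM II, 0 genes of these lists were called.

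Within groups, the levels of some thioesterases went together from liver to liver. Log2 CPM less the group mean was correlated over the 16 libraries for the 28 pairs of listed genes, with permutation within groups, and 24 of the 28 coefficients were positive. The pairs are made of the same 8 genes and so are not independent. Pairs of other genes were not examined for comparison, so nothing is read from that count. Acot3 and Acot4 had a Pearson r of 0.818 (permutation p = 0.0032, adjusted over 28 pairs 0.0448) and a Spearman rho of 0.762 (permutation p = 0.00488, adjusted 0.0559). Without the 2 libraries farthest from the median of Acot3, r was 0.658. Acot4 and Acot12 had an r of 0.659 (permutation p = 0.00097, adjusted 0.0272) and a rho of 0.779 (permutation p = 0.00138, adjusted 0.0386). Their r was 0.691 without the 2 libraries farthest from the median of Acot4. Libraries extreme only in the second gene of a pair were kept. No other pair passed. Acot1 and Acot2, the closest in sequence, had an r of 0.481 (permutation p = 0.114, adjusted 0.263) and a rho of 0.591 (permutation p = 0.0492, adjusted 0.197). The points of a pair share their library, its depth and its tissue make-up.

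**Figure D5:**
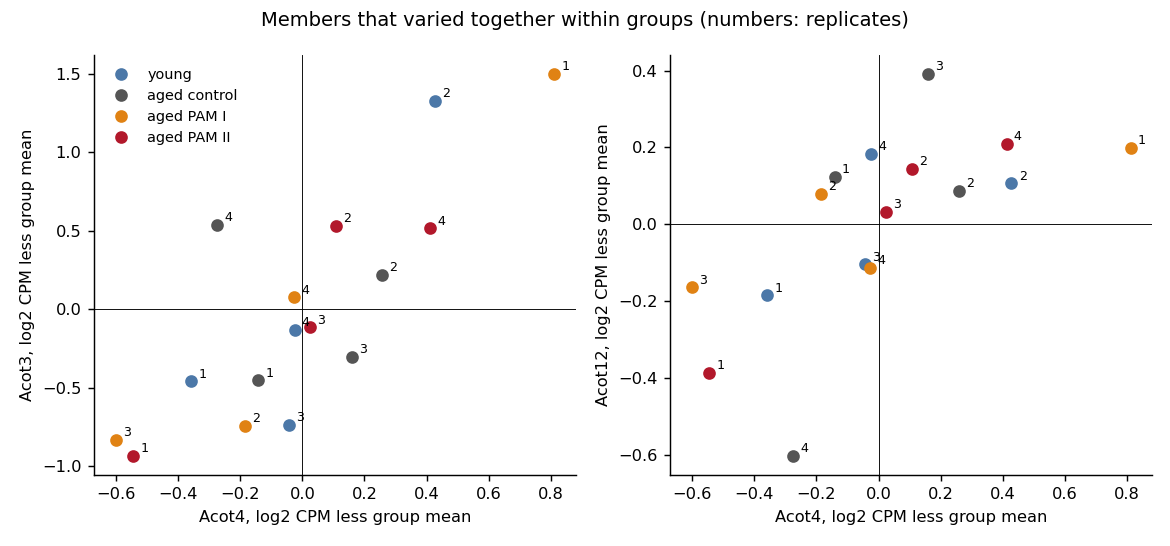
Log2 CPM less the group mean in the 16 libraries for Acot4 (x axes) against Acot3 (left y axis) and Acot12 (right y axis), coloured by group and numbered by replicate. PAM I replicate 1 lies highest on the x axis, and Pearson r was 0.818 on the left and 0.659 on the right.

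The genes most like each thioesterase in these within-group deviations were sought among 10754 genes, as a description over 16 libraries that share depth and tissue make-up. For Acot2 they were Acaa1b (r = 0.859), a peroxisomal thiolase, Cyb5r3 (0.848) and Dlec1 (0.823). Those of Acot4 were Rnf103 (0.907), Cfap97 (0.901) and Crat (0.895), the carnitine acetyltransferase, and those of Acot3 were Tm7sf2 (0.854), a sterol reductase, Rnf103 (0.838) and Lipt1 (0.83). Acot1 had Lsg1 (0.906), Nol6 (0.841) and Retsat (0.835), a retinol saturase. Acot12 had Mfsd8 (0.967), Hif1an (0.951) and Usp47 (0.95). Acot13 had Gapdh (0.923), Cox7c (0.902) and Uqcrb (0.9), the latter 2 subunits of the respiratory chain. Acot8 had Tmem102 (0.891), Rfesd (0.884) and Ech1 (0.878), and Acot7 had Mrpl15 (0.814), Surf1 (0.772) and Sap18 (0.733). Rnf103 was the one gene named for more than 1 thioesterase. The values given are the highest of 10754 per thioesterase and so are high by selection. How high they would be by chance was not examined.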

How the data were processed

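RNA of 16 liver samples, 4 per group, was sequenced in pairs of reads. Replicate numbers only name the samples, in the order listed within a group, and pair none across groups. Each deposited table gives unnormalized counts of fragments by gene for 1 library. The submitters' processing notes name Trimmomatic 0.38, HISAT2 2.1.0, featureCounts 1.5.0-p2 and the build mm10. Counting used Ensembl release 99 and strand setting 1 and set no option for fragments with several matches, per the file headers. The only other column used, the length of the exons of each gene, is also the authors'.

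Symbols came from GENCODE M21 for 55230 of 55471 identifiers. In R 4.3.3 with edgeR 4.0.16, filterByExpr with a minimum count of 10 kept 17046 genes, and after TMM scaling (factors 0.887 to 1.13) the 16 libraries entered 1 robust quasi-likelihood fit in which every group had its own mean. Its biological coefficient of variation was 27.3%. Tests were two-sided, with Benjamini-Hochberg adjustment within each comparison and a threshold of 0.05. CPM and FPKM are TMM-scaled, and log2 CPM values used a prior count of 2. Pairs of genes were tested with 100000 permutations, two-sided. The scripts were tested on simulated data.

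The settings varied were the scaling (RLE, upper quartile), the filter (none, or a filter of 1 CPM in 4 libraries), no robust step, DESeq2 1.42.0, voom in limma 3.58.1, only the groups compared, a muscle covariate, and libraries left out. The genes and lists were chosen with earlier results of these data known. Named genes are all thioesterases listed, up to 3 called genes per direction of each pathway list by p, and the 3 most like each thioesterase. In place of a planned protein comparison, coding sequences of GENCODE M21 transcripts were aligned with Biopython 1.88. Promoter entries were matched for 7 of the 8 genes, all but Acot13.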

Additional observations from a re-analysis of the deposited data

Results flagged for a closer look

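In 3 of the 68 combinations of a thioesterase and a group, 1 library stood apart from the other 3 by Dixon's criterion, which chance alone meets in about 1 of 20 groups. Acot3 was at 6.64 CPM in young replicate 2 and at 1.55 to 2.39 CPM in the other young livers. Acot9, a mitochondrial thioesterase, was at 5.79 CPM in aged control replicate 4 and at 4.36 to 4.53 CPM in the other aged controls. Hibch, the hydrolase of valine breakdown, was at 41.7 CPM in PAM I replicate 3 and at 49.7 to 51.4 CPM in the other PAM I livers.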

How the results depend on the processing

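Acot2 was called in aged controls against young mice in 8 of 8 fits that left out 1 library and in 10 of 10 other settings, with log2 fold changes of 1.70 to 2.06. Acot3 was called in 7 of 8 and 9 of 10 (2.63 to 3.70), and Acot4 in 1 of 8 and 5 of 10. Of the 8 thioesterases, 2 were called, 1 without aged control replicate 4 and young replicate 1 together, and 1 to 3 with 1 library left out. Over all genes the count of 551 became 1343 with DESeq2, 198 with only the groups compared, 300 with the muscle covariate and 155 without that pair of libraries. With 1 library left out it was 199 (without young replicate 4) to 573, with 284 without aged control replicate 4 and 271 without young replicate 1. DESeq2 called 16 genes for PAM I against 0. The FPKM order of the group means was the same with RLE scaling and unscaled CPM. Scaling cannot change the order within a library, so this says little about the order. The gene lengths, which can change it, were not varied. No paired analysis was possible because the labels carry no replicate numbers within groups, and those used here are names that pair no samples.

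Signs turned only for values that were not called; the cause was not tested. With the muscle covariate the log2 fold change was -0.072 for Acot12, -0.035 for Acot13 and -0.091 for Acot4 in PAM II against controls, and 0.000808 for Acot8 and 0.026 for Hibch with age. Without aged control replicate 4 and young replicate 1 it was -0.13 for Acot12, 0.17 for Acot3 and -0.00201 for Acot4 in PAM II, and 0.000468 for Acot8 and 0.00282 for Hibch with age. Voom gave 0.15 for Acot3 in PAM II against controls, 0.14 in PAM II against PAM I, and 0.00153 for Hibch with age, where upper-quartile scaling gave 0.00948. Leaving out 1 library gave ranges across 0. With age they were -0.10 to 0.20 for Acot12, -0.011 to 0.11 for Acot7, -0.19 to 0.020 for Acot8 and -0.17 to 0.10 for Hibch. For PAM I they were -0.014 to 0.34 for Acot2, -0.53 to 0.50 for Acot3 and -0.42 to 0.10 for Acot4. For PAM II they were -0.13 to 0.17 for Acot12, -0.043 to 0.12 for Acot13, -0.20 to 0.21 for Acot3, -0.069 to 0.24 for Acot4 and -0.082 to 0.063 for Acot8. Between the antibiotic groups they were -0.53 to 0.50 for Acot3 and -0.020 to 0.51 for Acot4.

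Counts were low in young libraries for Acot6 (from 20 fragments), Acot9 (from 59) and Acot3 (from 62), and 4 livers a group limit every comparison.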
